A study of Rattus norvegicus with 2 samples.

Results

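The genes described here are the rat vomeronasal receptors (Vom1r and Vom2r) and taste receptors (Tas1r and Tas2r), receptors of the nose and tongue that were taken to show how low values behave in urine RNA sequencing. A gene was taken when its entry in the deposited table carried a number-only NCBI gene ID and its RefSeq symbol began with Vom1r, Vom2r, Tas1r or Tas2r. The rule found 161 genes among 16484 entries with a number-only ID and 113011 entries in all, namely 64 Vom1r, 73 Vom2r, 3 Tas1r and 21 Tas2r genes. The name table holds 419 genes with such symbols, and the other 258 were not listed.

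RNA was sequenced from urine of Sprague Dawley rats in 2 libraries, 1 per group. The age of the rats is given as 8 weeks (postnatal day 56), without saying whether at surgery or at urine collection. One library, labelled UUO, came from rats 14 days after ligation of the right ureter (unilateral ureteral obstruction, a surgical model of kidney scarring). The other, labelled WT, came from sham-operated rats of the same strain and age at the same time. A catheter placed in the ureter collected the urine of both groups. How many rats gave urine to each library is not stated. The labels name no transgene or drug for either group. With 1 library per group no test between the groups was possible, so every difference given below is between these libraries, without a replicate check. The 2 value columns belong to conditions entered as UrRf and Urc, which were read as UUO and WT from the series' title and the study's own group headings, and all directions rest on that reading.

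Vomeronasal receptors are G protein-coupled receptors of the sensory neurons of the vomeronasal organ, a chemosensory structure of the nasal septum that responds to pheromones. Vom1r genes have a coding region in a single exon, whereas Vom2r genes and Tas1r genes have several exons and encode a large extracellular domain. Tas1r proteins pair to form sweet and umami receptors, Tas2r proteins, again encoded by single exons, are bitter receptors, and both act in taste cells through the G protein gustducin, phospholipase C and the channel Trpm5.

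In the UUO library 57 of the 161 genes had an FPKM (fragments divided by transcript length and by the size of the library) above 0, or 35.4%, against 72.8% of all genes with a number-only ID. In the WT library 2 of 161 genes were above 0, or 1.24%, against 48.7% of all. At an FPKM of at least 1 there were 7 genes in UUO urine (4.35%, against 56.3% of all) and 2 in WT urine (1.24%, against 47.3% of all). Both shares were below those over all genes with a number-only ID, of any length, in both libraries. The receptors above 0 in WT urine were Vom2r44 and Tas1r3, and these were also above 0 in UUO urine, so that 55 genes were above 0 in the UUO library only and 104 were at 0 in both. No member reached an FPKM of 1 in both libraries.

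The mean FPKM over all 161 genes was 0.153 in UUO urine and 0.0247 in WT urine, beside means of 16.5 and 20.5 over all genes with a number-only ID. Their values summed to 24.6 in UUO urine and 3.98 in WT urine, which was 0.00908% and 0.00118% of the sum over those genes. The whole WT sum came from Vom2r44 and Tas1r3. The 10 highest genes in UUO urine lay between 0.809 and 2.16, and all 10 were listed at 0 in WT urine.

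**Figure D1:**
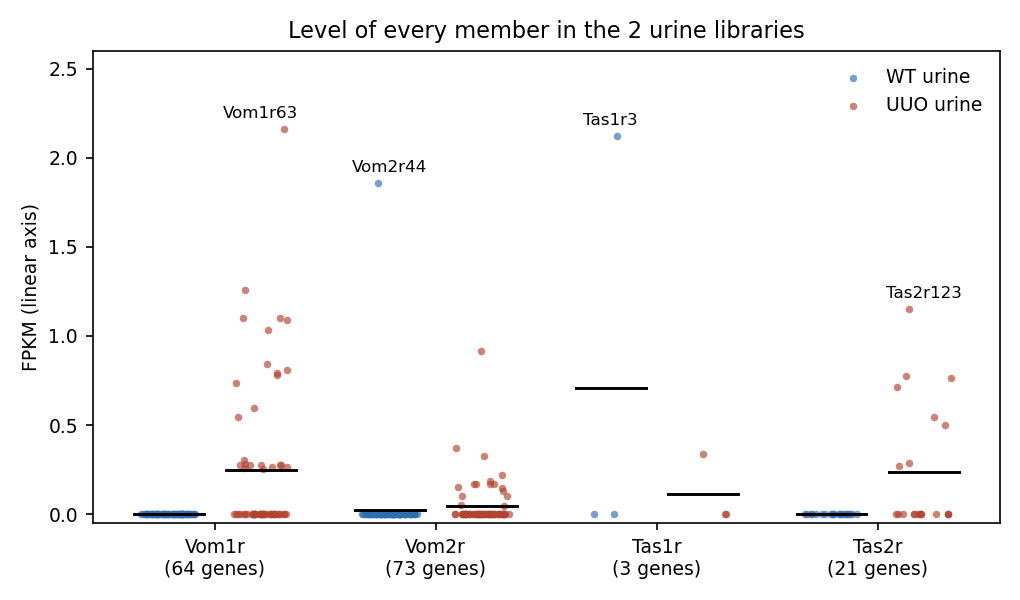
FPKM of each of the 161 genes (1 point a gene, spread sideways for visibility; linear axis) by family in the WT and UUO libraries, with black bars at the mean over the family. In UUO urine the points lie between 0 and 2.16, while in WT urine all are at 0 but Vom2r44 at 1.86 and Tas1r3 at 2.12.

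FPKM of short genes can be read in fragments. Assembled features of 400 to 1200 bp, above 0 and the only entry of their locus, numbered 3530 in UUO urine and 186 in WT urine. A library total and a length offset were fitted so that their FPKM, up to 30 fragments, fell on whole multiples of 1 fragment. At the fit, 3465 of 3474 such values in UUO urine (99.7%) were whole within 0.1, and 128 of 129 in WT urine (99.2%). These shares are what the fit sought to raise. From these steps 1 fragment on a locus of 1000 bp corresponded to an FPKM of 0.497 in UUO urine and 0.542 in WT urine, so that it weighed about the same in both libraries. Of the receptor genes, 64 lay at 63 loci of at most 1200 bp (817 to 1114 bp, 58.7 kb together), 51 of them Vom1r and 13 Tas2r genes. For 60 of these 64 genes (93.8%) the locus length was a multiple of 3, as a locus made of coding sequence alone would have. Among the other short genes, those of olfactory receptors left out, 39.9% had such a length. The share among olfactory receptors was not computed. Reads of a shared locus are divided among the entries there, so FPKM was summed over each locus before fragments were computed.

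In UUO urine 27 of the 63 short receptor loci were above 0 (42.9%). Of 434 other short loci, those of olfactory receptors left out, 35.9% were above 0. The 434 loci covered 246 kb and so were shorter on average than the receptor loci. Shares of the 2 sets are therefore not matched for length. All 27 receptor loci came out within 0.1 of a whole number of fragments. A single fragment was found at 15 loci, 2 fragments at 3 loci, 3 fragments at 6 and 4 fragments at 3, and no locus held 5 or more. The 27 loci therefore held 51 fragments in all, or 0.869 per kb. In WT urine 0 of the 63 loci were above 0, against 17.3% of the 434. A listed 0 in a table without counts need not be a count of 0, so no limit on the fragments is given for that library. The largest deviation from a whole number, 0.081 fragments, was at the locus shared by Vom1r79 and Vom1r73, and the next was 0.0068.

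**Figure D2:**
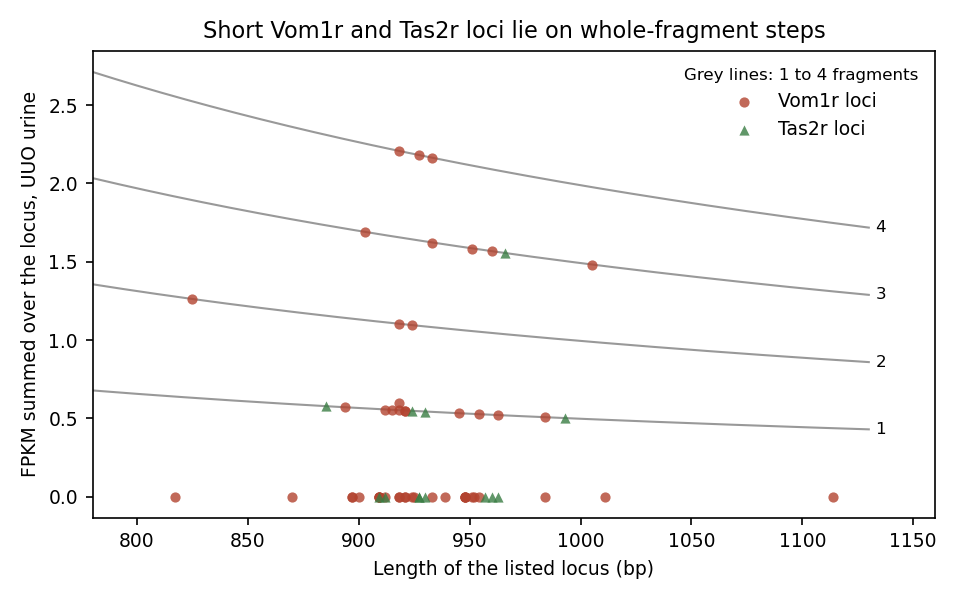
FPKM summed over the locus in UUO urine against the length of the locus (bp) for the 63 short Vom1r (circles) and Tas2r (triangles) loci, with grey lines at the FPKM of 1, 2, 3 and 4 fragments. The 27 loci above 0 lie on the lines, 15 of them on that of 1 fragment, and the other loci lie at 0.

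Among the Vom1r genes, 27 of 64 were above 0 in UUO urine (42.2%) and 0 of 64 in WT urine. Vom1r63 was highest, with an FPKM of 2.16 in UUO urine and 0 in WT urine. It is listed alone at chromosome 1, 69455614 to 69456546 (rn5), a length of 933 bp, and its value came to 3.99 fragments. Vom1r110 had an FPKM of 1.10 in UUO urine and 0 in WT urine, and with its partner entry its locus came to 4 fragments as well. Vom1r92 had 1.09 and 0, again with 4 fragments at its locus. The order of the FPKM values thus depended on whether the fragments of a locus were divided.

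Vom1r99 (FPKM 1.26 in UUO urine) and Vom1r39 (1.10) were each alone at their locus and held 2 fragments. Vom1r103 (1.03) shared a locus of 53630 bp with 6 other entries, which is too long for this reading. Vom1r71 (0.842) and Vom1r31 (0.809) held 3 fragments each at loci with a partner. All 5 were listed at 0 in WT urine. Those with a fragment count held 2 or 3 fragments, and no order among the 5 can be read from such values.

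The lower Vom1r values formed a step of their own. At 21 short receptor loci with exactly 2 entries and a value above 0, the partner entry had 1.0048 to 1.0069 times the FPKM of the receptor. The partner was a NONRATG entry, from a database of noncoding RNA, at each of the 40 receptors on short loci with 2 entries. In UUO urine 12 receptors on such loci had an FPKM between 0.2 and 0.3, which is 1 fragment divided between the gene and its partner. Vom1r102, Vom1r73 and Vom1r94 were above 0 by less than 0.01, at 0.00322, 0.000461 and 0.000202. Such values are far below that of 1 fragment, and each of these genes shares its locus.

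The windows around the annotated starts show which part of a gene the annotation covers, since FPKM divides by transcript length. RefSeq windows of the GRCr8 assembly, from 250 bases before to 50 bases after the start, were matched for 146 of the 161 genes. The first 3 annotated bases were ATG, the usual start codon, in 99 of the 146 (67.8%), in all 19 of the Tas2r windows and in 27 of 56 Vom1r windows (48.2%), against 10.5% of 27457 genes in the table. The median GC content was 37.3% over the receptor windows and 52.3% over all. By family the medians were 34% for Vom1r, 38.5% for Vom2r, 36% for Tas2r and 57.3% for the 3 Tas1r genes. The windows of the highest Vom1r and Tas2r gene in UUO urine and of the highest gene in WT urine follow, 5′ to 3′ on the strand of the gene, with the first 3 annotated bases in capitals.
Vom1r63, chr1:73678529-73678828, plus strand: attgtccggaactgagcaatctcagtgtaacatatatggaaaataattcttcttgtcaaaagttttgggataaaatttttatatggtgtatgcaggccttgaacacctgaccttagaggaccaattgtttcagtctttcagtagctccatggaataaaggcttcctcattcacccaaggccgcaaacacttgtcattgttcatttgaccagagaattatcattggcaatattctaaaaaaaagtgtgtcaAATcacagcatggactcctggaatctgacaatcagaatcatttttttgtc
Tas2r123, chr4:168009279-168009578, minus strand: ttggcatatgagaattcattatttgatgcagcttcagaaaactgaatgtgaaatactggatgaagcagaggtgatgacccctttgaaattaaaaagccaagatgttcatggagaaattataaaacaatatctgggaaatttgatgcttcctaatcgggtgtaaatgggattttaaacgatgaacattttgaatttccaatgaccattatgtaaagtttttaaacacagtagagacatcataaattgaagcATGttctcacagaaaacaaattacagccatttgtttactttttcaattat
Tas1r3, chr5:171754944-171755243, minus strand: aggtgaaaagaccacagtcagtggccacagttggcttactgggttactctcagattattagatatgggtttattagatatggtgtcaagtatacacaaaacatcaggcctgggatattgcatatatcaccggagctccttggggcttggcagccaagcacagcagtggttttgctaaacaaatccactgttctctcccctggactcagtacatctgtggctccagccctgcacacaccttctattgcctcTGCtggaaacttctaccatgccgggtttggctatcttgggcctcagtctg
The annotation of Tas2r123 begins at an ATG, while those of Vom1r63 and Tas1r3 begin at other bases. The annotation used for the deposited table may start elsewhere.

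Among the Tas2r genes, bitter receptors, 8 of 21 were above 0 in UUO urine (38.1%) and 0 of 21 in WT urine. All but one of the 21 are on chromosome 4. Tas2r123 was highest, with an FPKM of 1.15 in UUO urine and 0 in WT urine, and shares a locus of 133872 bp with 7 other entries. Tas2r103 (0.762) and Tas2r113 (0.715) lie at the same locus, and so do Tas2r110, Tas2r116 and Tas2r140, which were at 0 in both libraries. Tas2r135, with an FPKM of 0.775 in UUO urine and 0 in WT urine, was the only short Tas2r locus with 3 fragments. The other 4 short Tas2r loci above 0, those of Tas2r106, Tas2r136, Tas2r143 and Tas2r105, held 1 fragment each. The 13 short Tas2r loci held 7 fragments in all in UUO urine (0.575 per kb), beside 44 at the 50 Vom1r loci (0.946 per kb). In WT urine all of these loci were listed at 0.

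Among the Vom2r genes, 20 of 73 were above 0 in UUO urine (27.4%) and 1 of 73 in WT urine. Their listed loci are long (5584 to 1169486 bp) because the genes have introns and overlap other entries, so fragments could not be computed. Vom2r13 was highest in UUO urine, with an FPKM of 0.913, and 0 in WT urine. Next were Vom2r72 at 0.374 and Vom2r9 at 0.324, both at 0 in WT urine. Of the 73 genes, 6 were alone at their locus, and 4 of these were above 0 in UUO urine. They were Vom2r54, Vom2r77, Vom2r76 and Vom2r79, with FPKM from 0.169 to 0.187, and all of them were at 0 in WT urine. Another 4 Vom2r genes were above 0 by less than 0.01 in UUO urine.

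Vom2r44 went the other way. Its FPKM was 1.86 in WT urine and 0.000213 in UUO urine, a difference of log2(FPKM + 1) of -1.52 (UUO minus WT). It is listed at chromosome 2, 173988984 to 174021203 (rn5), with 2 noncoding entries, NONRATG015793 and NONRATT029499. These had FPKM of 0.275 and 0.274 in UUO urine and 0 in WT urine, so at this locus the value lay on the receptor in the WT library and on the noncoding entries in the UUO library. The summed FPKM of the locus was 0.549 in UUO urine and 1.86 in WT urine. The nearest other genes were Gmps, a purine synthesis enzyme, 14444 bp away (9.57 in UUO urine and 13.5 in WT urine), and Vom2r46, 37104 bp away (0.1004 and 0).

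Among the Tas1r genes, Tas1r3, the subunit common to the sweet and umami receptors, had an FPKM of 2.12 in WT urine and 0.341 in UUO urine, a difference of log2(FPKM + 1) of -1.22 (UUO minus WT). It was the highest receptor gene in WT urine. Tas1r1, the umami partner, had an FPKM of 2.39e-05 in UUO urine and 0 in WT urine, and Tas1r2, the sweet partner, was at 0 in both. Tas1r1 and Tas1r3 each share their locus with noncoding entries. The summed FPKM of the Tas1r1 locus was 0.420 in UUO urine and 0 in WT urine, and that of the Tas1r3 locus 0.341 and 2.12. Tas1r3 is listed at chromosome 5, 176784486 to 176787639 (rn5). Its neighbours were Mxra8, a cell surface protein gene 850 bp away at 0 in both libraries, and Cptp, a lipid transfer protein gene 2195 bp away with an FPKM of 4.64 in UUO urine and 12.03 in WT urine. Whether reads of Cptp reach the Tas1r3 entry was not tested.

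Between the libraries, 9 receptor genes had an FPKM of at least 1 in either. Of these, 7 were higher in UUO urine and 2 lower by at least 1 in log2(FPKM + 1), beside 25.7% higher and 36.5% lower among 9853 genes with a number-only ID that passed the same limit. A receptor at 0 in 1 library passes this limit only through the library where it is high, so nothing is read from that count. The 7 were Vom1r63, Vom1r99, Vom1r39, Vom1r110, Vom1r92, Vom1r103 and Tas2r123, and the 2 were Tas1r3 and Vom2r44. Rescaling moved the split over all genes. Of the genes that differed by at least 1 in log2(FPKM + 1) in either direction, 41.3% were higher in UUO urine as deposited, 51.9% at equal sums and 73.2% by the median ratio, with median differences, over the genes that reached an FPKM of 1 in some library, of -0.51, -0.17 and 0.51. The receptors split 7 to 2, 10 to 2 and 19 to 1 under these scalings. By the median ratio Vom2r44 still counted as lower, and the difference for Tas1r3 was under 1.

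Low values were rare in the WT library in general. Of all genes with a number-only ID, 16.6% had an FPKM above 0 and under 1 in UUO urine and 1.4% in WT urine. Among 434 other short loci, 156 were above 0 in UUO urine and 57 of these (36.5%) held 1 to 4 fragments, whereas 75 were above 0 in WT urine and 6 of these (8%) held 1 to 4. The assembled features of 400 to 1200 bp alone at their locus and above 0 numbered 3530 in UUO urine and 186 in WT urine. Their medians were 9 and 22 fragments, with those above the 30 fragments used in the fit included. The short receptor loci above 0 in UUO urine, at 1 to 4 fragments, thus lay where the WT library had few values of any kind. The part of this difference between the libraries in the receptor values was not tested.

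**Figure D3:**
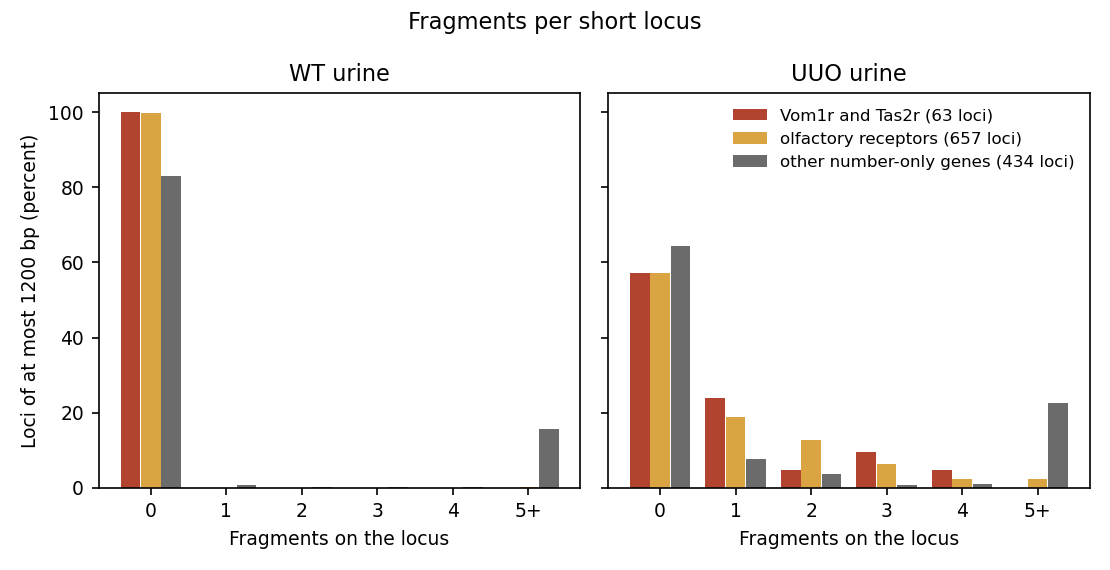
Percent of loci of at most 1200 bp by the number of fragments on the locus (FPKM summed over the locus; 5+ is 5 or more) in the WT (left) and UUO (right) libraries, for the Vom1r and Tas2r genes, the olfactory receptors and all other genes with a number-only ID. In UUO urine 42.9% of the Vom1r and Tas2r loci hold 1 to 4 fragments and none more, while in WT urine all of them are at 0. Fragments are rounded to whole numbers, and values of the other genes lie less often near a whole number. The loci of the other genes are shorter on average.

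Other receptors of sensory neurons were counted beside them. Of 803 olfactory receptor genes, which detect odours in the nose, 351 (43.7%) were above 0 in UUO urine and 2 (0.249%) in WT urine. The mean FPKM of these genes in UUO urine was 0.259, beside 0.153 for the vomeronasal and taste receptors. On short loci the olfactory receptors held 616 fragments over 621.9 kb in UUO urine, 0.991 per kb beside 0.869 per kb. The share of loci above 0 was 42.8% for them and 42.9% for the Vom1r and Tas2r loci. They reached up to 31 fragments, and 16 of 657 loci (2.44%) held 5 or more. None of the 63 did, but at such a share 63 loci are too few to show a difference. In WT urine the olfactory receptors above 0 were Or8g37b, with an FPKM of 7.003, and Olr1, with 0.836. Of 10 trace amine receptors, 6 were above 0 in UUO urine and 0 in WT urine, and the 2 listed formyl peptide receptors were at 0 in both.

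Genes of other tissues were counted as well. Of 16 lens crystallin genes, 3 were above 0 in UUO urine and 1 in WT urine, among them the stress protein gene Cryab at 38.3 and 361. Of 9 retina genes, 3 were above 0 in UUO urine, all under 1, and 0 in WT urine. The 5 sperm nucleus genes were at 0 in both libraries, and of 9 pancreas acinar genes only Cela1 was above 0, at 3.36 in UUO urine and 30.8 in WT urine. How these lists differ from the receptors was not tested.

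**Figure D4:**
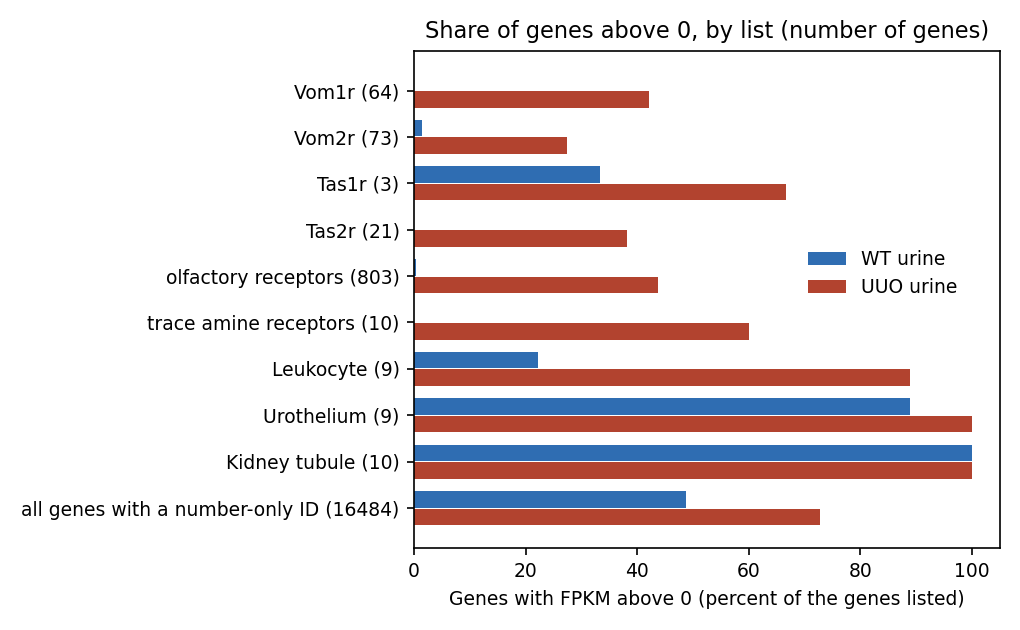
Percent of the genes of each list with an FPKM above 0 in the WT (blue) and UUO (red) libraries, with the number of genes in parentheses. The Vom1r, Vom2r and Tas2r bars lie at 42.2%, 27.4% and 38.1% in UUO urine and at 0, 1.37% and 0 in WT urine, the bars of the 3 Tas1r genes lie at 66.7% and 33.3%, and those of the kidney tubule markers at 100% in both.

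The share above 0 moved with the layout of the locus. Of the 161 genes, 134 (83.2%) shared their locus with another entry and 27 were alone. On short loci 5 of 20 receptors alone at their locus (25%) were above 0 in UUO urine, and 23 of 44 that shared it (52.3%). For the olfactory receptors the split was wider, with 1 of 126 alone (0.794%) and 287 of 541 sharing (53%). Over all genes with a number-only ID, of any length, it was 40.4% of 1107 alone and 75.2% of 15377 sharing. Of the 434 other short loci, single and shared together, 35.9% were above 0, and of the 175 among them with 1 entry 20%. These 2 shares are of a whole and its part, not of alone against sharing. The 175 covered 68.55 kb and were also shorter on average than the receptor loci. In fragments, the 20 receptor loci with 1 entry held 10 and the 43 shared loci 41. By chromosome, 10 of 31 short loci on chromosome 1 were above 0 with 18 fragments, 11 of 23 on chromosome 4 with 21, and 6 of 9 elsewhere with 12. When FPKM was summed over the locus, 118 of the 161 genes stood at a locus above 0 in UUO urine (73.3%, against 92.2% of all genes with a number-only ID) and 34 in WT urine (21.1%, against 62.9%), 28 of the latter being Vom2r genes, which share long loci with many noncoding entries.

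Of 14 genes through which taste receptors signal, 7 were above 0 in UUO urine and 3 in WT urine. Those at 0 in both included Gnat3, the gustducin subunit, Trpm5, the channel of sweet, umami and bitter cells, Calhm1 and Calhm3, the channel through which these cells release ATP, Otop1, the proton channel of sour taste, and Pkd2l1, a marker of sour cells. Plcb2, the phospholipase of this pathway, had an FPKM of 0.646 in UUO urine and 0 in WT urine. Rtp3 and Rtp4, of the receptor transport family, had 0.294 and 2.33 in UUO urine and 0 in WT urine. The 3 genes above 0 in both libraries were the broadly expressed G protein subunit gene Gnb1, with 20.3 in UUO urine and 207 in WT urine, the calcium release channel gene Itpr3, with 8.93 and 9.83, and the cation channel gene Trpm4, with 7.94 and 10.2. Gng13, another G protein subunit gene, had 11.4 and 0 at a locus with 5 other entries, and Gnb3 was at 0 in both.

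Of 9 listed markers of tuft cells, chemosensory epithelial cells that share the taste pathway, 3 were above 0 in UUO urine and 2 in WT urine. Pou2f3, the transcription factor of these cells, Trpm5, Alox5, Hpgds and Chat were at 0 in both, Chat at a locus with 137 entries. Avil (0.144) and Gfi1b (0.150) were above 0 in UUO urine only and Dclk1 (0.00198) in WT urine only, and Ptgs1, a prostaglandin synthase also found in other cells, was highest at 11.0 in UUO urine and 1.96 in WT urine. Of 11 listed genes of vomeronasal and olfactory sensory neurons, 5 were above 0 in UUO urine and 1 in WT urine. The channel genes Cnga2 and Cnga4, the G protein gene Gng8, Stoml3 and the receptor transport genes Rtp1 and Rtp2 were at 0 in both. Above 0 in UUO urine and at 0 in WT urine were Gnal, the G protein of olfactory neurons, at 8.54, Gnao1, the G protein of Vom2r neurons, at 2.91, and Adcy3, an adenylyl cyclase, at 1.15. Gnai2, a G protein subunit gene of Vom1r neurons that most cells express, had 68.6 in UUO urine and 159 in WT urine, and Omp, the olfactory marker protein gene, had 14.6 and 0 at a locus with 6 other entries. Levels of genes at shared loci are uncertain.

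Urothelium markers were above 0 for 9 of 9 genes in UUO urine and 8 of 9 in WT urine (Krt5 was at 0), with sums of 2541 and 2088, and kidney tubule markers for 10 of 10 in both, with sums of 189 and 311, the lowest being Cubn at 0.706 in UUO urine. Of the leukocyte markers, 8 of 9 were above 0 in UUO urine (sum 142) and 2 of 9 in WT urine (sum 9.61). The neutrophil gene S100a9 stood at 71.7 and 0, the monocyte gene Cd14 at 1.31 and 2.05, and the T cell gene Cd3e at 0 in both. The part of leukocyte RNA in the receptor values was not tested, and fewer cells of a type cannot be told apart from less RNA per cell.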

How the data were processed

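Per the labels and the study's methods, the authors sequenced urine RNA, aligned reads to rn5 and compared the libraries; the submitters' processing notes name Bowtie2 2.0.6, TopHat2 2.0.9, Cufflinks 2.1.1 and Cuffdiff 2.1.1. The deposited table holds 1 FPKM value per entry and library, computed by the authors. Its log2 fold, p and q columns are the authors' own comparison and were not used. Loci are merged regions of overlapping entries and were written 1-based. Reads of overlapping entries and of near-identical receptor copies are divided by the authors' software, so single values are uncertain.

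Symbols came from a RefSeq table of GRCr8, which matched 16329 of 16484 number-only IDs (99.1%). Members, marker lists and limits were chosen with earlier results of these data known. Differences used log2(FPKM + 1), which understates low genes, among genes of at least 1 in either library. A library total and a length offset were fitted so that FPKM of single assembled features, up to 30 fragments, fell on whole fragments (tolerance 0.1). The fit was tested on simulated whole fragments turned into FPKM by the same formula. That tests the search alone, not whether the deposited values follow the formula. The fitted totals were 2438000 in UUO urine and 2114000 in WT urine, and the offsets 175 and 128 bp. These totals are fitted scaling constants, not the libraries' read counts. Named by rule were all Tas1r genes, the 10 highest members in UUO urine, the 2 members above 0 in WT urine and up to 2 of the highest genes of each list; any other gene, those named for being at 0 included, was picked with its value in view. No p-value was computed. Python 3.11.15, pandas 2.3.3 and numpy 2.4.6 were used. Alternatives covered detection limit, pseudocount, scaling, locus sharing, left-out members and the step fit.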

Additional observations from a re-analysis of the deposited data

How the results depend on the processing

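Of 57 alternative values over 14 results, 33 stayed near the value given, 24 moved and 0 reversed. Of the members, 57 were above 0 in UUO urine, but 7 at an FPKM of at least 1, 9 among genes alone at their locus, 5 among short such genes with at least 1 fragment, and 118 by the locus sum (an alternative chosen after seeing the data). For WT urine the count of 2 became 0, 0 and 34 under the last 3 of these, and the percentage 0 among genes alone. Among genes alone at their locus the mean FPKM was 0.232 in UUO urine and 0 in WT urine, the percent of the summed FPKM 0.00231 and 0, and the members higher and lower 3 and 0. Without the highest member the WT mean was 0.0116 and its percent of the sum 0.00055; without the 5 highest, both were 0, as was the mean without Tas1r3 and Vom2r44, an alternative added after seeing the data. Members higher and lower in UUO urine numbered 19 and 1 by the median ratio and 17 and 1 by the 75th percentile. Of all genes with a number-only ID that differed, 73.2% and 69.8% were higher under these scalings. A receptor at 0 in 1 library passes the limit only through the other, so nothing is read from these counts or from the 3 and 0. Loci with 1 entry, again added later, held 10 fragments in UUO urine. The cause of these changes was not tested beyond what each alternative leaves out or rescales. A value of 1 to 4 fragments carries a large counting error, values at shared loci depend on how fragments were divided, and 1 library per group gives no spread. No paired analysis was possible because a single library stands for each group.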
